A study of Mus musculus with 2 samples.

Results

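The 10 genes described here encode transporters that carry bile acids, bilirubin conjugates, phospholipid and sterols across the membranes of hepatocytes. They were chosen by name: a probe belonged to a transporter when the gene name in both scanner files was its symbol or a synonym. This gave 12 probes for 10 genes, of 39429 probes and 22803 named genes on the array. Liver RNA of C57BL/6 mice was measured on 2 Agilent 2-colour arrays, 1 per genotype. The AID transgenic array carried RNA of AID transgenic liver with thioacetamide treatment in the Cy5 channel and of AID transgenic liver with no treatment in the Cy3 channel. The wild-type array carried wild-type liver with thioacetamide treatment in Cy5 and untreated wild-type liver in Cy3. Thioacetamide is a hepatotoxin that was given in the drinking water for 6 months. The sources used here do not say which promoter drives the transgene, how old or of which sex the mice were, or whether a channel held RNA of a single animal or a pool. Each genotype had a single array and dyes were not swapped, so differences lack a replicate check and carry no p-value, and the dye is tied to the treatment in every treatment ratio.

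Bile is formed when hepatocytes move solutes from blood to the bile canaliculus. Carriers in the basolateral membrane take up bile acids and other organic anions from sinusoidal blood, and ATP-driven pumps in the canalicular membrane export bile acids, phosphatidylcholine, conjugated bilirubin and sterols into bile. A further set of basolateral pumps can return solutes to blood, and several of these genes are known targets of the nuclear receptors FXR, PXR and LXR and of the transcription factor NRF2.

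Of the uptake carriers, Slc10a1 encodes the sodium-dependent bile acid transporter NTCP, and its values turn on which of its 2 probes is read. The stretches shown here are 30 bases of each 60-base probe as deposited, and 30 bases of the Slco1a4 probe are given because that gene had the largest difference between the arrays among the 10. The file headers place the probes on mm9, at chr12:82061470-82061529 (minus strand) for position 503 of the Slc10a1 transcript, at chr12:82056539-82056598 (minus strand) for position 1291, and at chr6:141754675-141754734 (minus strand) for Slco1a4. Capitals mark a 15-base word of the position 1291 probe that also lies in 11 of 32851 promoter windows (0.0335%).
Slc10a1 probe at position 503: cctacaaaggcattatgttatcactcgtca
Slc10a1 probe at position 1291: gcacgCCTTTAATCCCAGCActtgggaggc
Slco1a4 probe: tatctcggtggatatgtgattgcctaatac
The position 1291 stretch reads like the start of a B1 repeat, a short interspersed element that lies in many mouse transcripts. It shared a word of 15 bases with 24 other probes of the array and with 68 promoter windows, against at most 1 other probe and 3 windows for any other probe of the 10 genes. The file lists accessions of 4 genes for it and of 1 gene for each of the other 11 probes. Where the probes lie in exons, introns or untranslated regions was not determined, since no annotation of mm9 was used.

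The promoter stretches come from RefSeq with coordinates of GRCm38.p6, and 9 of the 10 genes had an entry, in 13 windows of 300 bases. They are shown for the bile acid pump gene Abcb11, for Abcc2, which was at 2-fold on both arrays, and for the pair Abcg5 and Abcg8. The Abcg5 start and a listed Abcg8 start lie head to head with 109 bases between them. A further listed start of Abcg8, at chr17:84676302, is not shown. The Abcb11 stretch is chr2:69342617-69342866 (minus strand), with an inverted repeat of the FXR type in capitals. The Abcc2 stretch is chr19:43782058-43782307 (plus strand), with a match to the antioxidant response element, the motif bound by NRF2, in capitals. The stretch between Abcg5 and Abcg8 is chr17:84683012-84683120 (plus strand), with 2 GATA boxes and 1 TATA box in capitals.
Abcb11: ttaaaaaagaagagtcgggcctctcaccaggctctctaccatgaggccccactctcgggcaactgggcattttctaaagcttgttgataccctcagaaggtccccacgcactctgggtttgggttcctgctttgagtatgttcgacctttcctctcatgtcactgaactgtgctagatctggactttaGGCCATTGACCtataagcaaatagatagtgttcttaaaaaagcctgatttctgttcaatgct
Abcc2: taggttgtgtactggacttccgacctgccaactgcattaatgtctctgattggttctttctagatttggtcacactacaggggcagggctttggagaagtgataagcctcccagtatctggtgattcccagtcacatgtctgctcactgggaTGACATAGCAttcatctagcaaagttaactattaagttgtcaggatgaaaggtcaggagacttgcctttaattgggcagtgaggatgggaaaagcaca
Abcg5 to Abcg8: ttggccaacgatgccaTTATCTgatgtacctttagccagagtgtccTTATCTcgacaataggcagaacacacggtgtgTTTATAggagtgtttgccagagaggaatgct
Motifs were searched on both strands. The strict inverted repeat, GGTCA and TGACC around 1 free base, was in 0 of the 13 windows and in 0.0396% of all 32851. A looser form that holds the strict one, with 1 further free base on either side, was added after the Abcb11 sequence had been read. It was in the windows of Abcb11, at -62 from the start, and Slco1b2, at -87, and in 0.676% of all. The antioxidant response element, TGAC and GCA around 3 free bases, was in the Abcc2 window, at -98 from the start, and in 3.04% of all windows. The GATA box AGATAA was in the windows of Abcg5 and Abcg8 and in 11.2% of all, and the TATA box TATAAA was in windows of Abcg5, Abcg8, Slc10a1 and Slco1b2 and in 13.6% of all. The direct repeat of GGTCA and AGGTCA around 1 free base, the HNF1 palindrome of GTTAAT and ATTAA around 1 free base and the HNF4 core CAAAGTCCA matched none of the 13 windows, and 0.0761%, 0.0609% and 0.475% of all. No position of a motif overlapped that of another in the stretches shown.

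The livers on the wild-type array differed in transcripts tied to sex. In thioacetamide-treated wild-type liver the female X-inactivation RNA Xist was at least 6.36-fold higher than in untreated wild-type liver, and the Y-linked genes Ddx3y and Eif2s3y were at least 17.6-fold and 32.1-fold lower. Neither AID transgenic liver had Xist well above background, and on that array Ddx3y and Eif2s3y had log2 ratios of -0.11 and -0.05. Among 10 male-biased liver genes, 3 reached a 2-fold lower level in the AID transgenic pair (median log2 ratio -0.75, or 0.05 with median centring) and 9 in the wild-type pair (median -3.74). Of the female-biased genes, 1 of 9 measured was higher on the AID transgenic array and 10 of 11 on the wild-type array. By Xist, Ddx3y and Eif2s3y, the treated wild-type liver read as female and the other livers as male, though sex was not given. Each wild-type treatment ratio, each difference between the arrays and each comparison of the treated livers carries this difference. Treatment and sex cannot be told apart in the wild-type pair, nor genotype and sex among the treated livers. Of 7 measured hepatocyte markers the median log2 ratio was 0.08 on the AID transgenic and -0.47 on the wild-type array, and the 1 marker at 2-fold was the apolipoprotein gene Apoa1, lower at -1.84 and -1.79. Alb, the albumin gene, had 0.17 and 0.60 and was the 1 marker of 7 above 0 on the wild-type array. With median centring the marker medians were 0.90 and 0.33, with 2 markers higher and 1 lower on the AID transgenic and 1 each way on the wild-type array. In whole liver, fewer cells of a type and less RNA per cell cannot be told apart.

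All 12 probes were well above background in all 4 livers, and none was saturated. A log2 ratio is Cy5 over Cy3 after loess normalization, so that it is thioacetamide over untreated. A level is the normalized log2 signal of a channel and was compared between livers for the same probe only. Errors written after ± come from the scanner's own error model for its log2 ratio and cover technical spot error alone. Among 399 probes with 10 spots each, the SD between spots had a median of 0.07 for log2 ratios on either array and of 0.09 to 0.10 for levels.

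At the 2-fold rule, which counts a log2 value of at least 1 in size, 2 of the 10 transporters were counted on the AID transgenic array, against 2.16% of 16708 measured genes, and 2 on the wild-type array, against 3.5% of 16673. Abcc2 was counted as higher on both arrays, as were 1.21% of genes on the AID transgenic and 1.86% on the wild-type array. Slco1a4 was counted as lower on the AID transgenic array, with 0.946% of genes, and Slco2b1 on the wild-type array, with 1.64%. The members had a median log2 ratio of -0.43 on the AID transgenic array, where the median of all measured genes was 0.03. They had a median of -0.21 on the wild-type array, where that of all genes was also 0.03. On the AID transgenic array 7 of 10 ratios lay below 0, and on the wild-type array 6 of 10. These signs depend on the dye normalization: with each array centred on its median in place of loess, the member medians were 0.32 and 0.55, and those of all genes were 0.34 and 0.35.

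**Figure D1:**
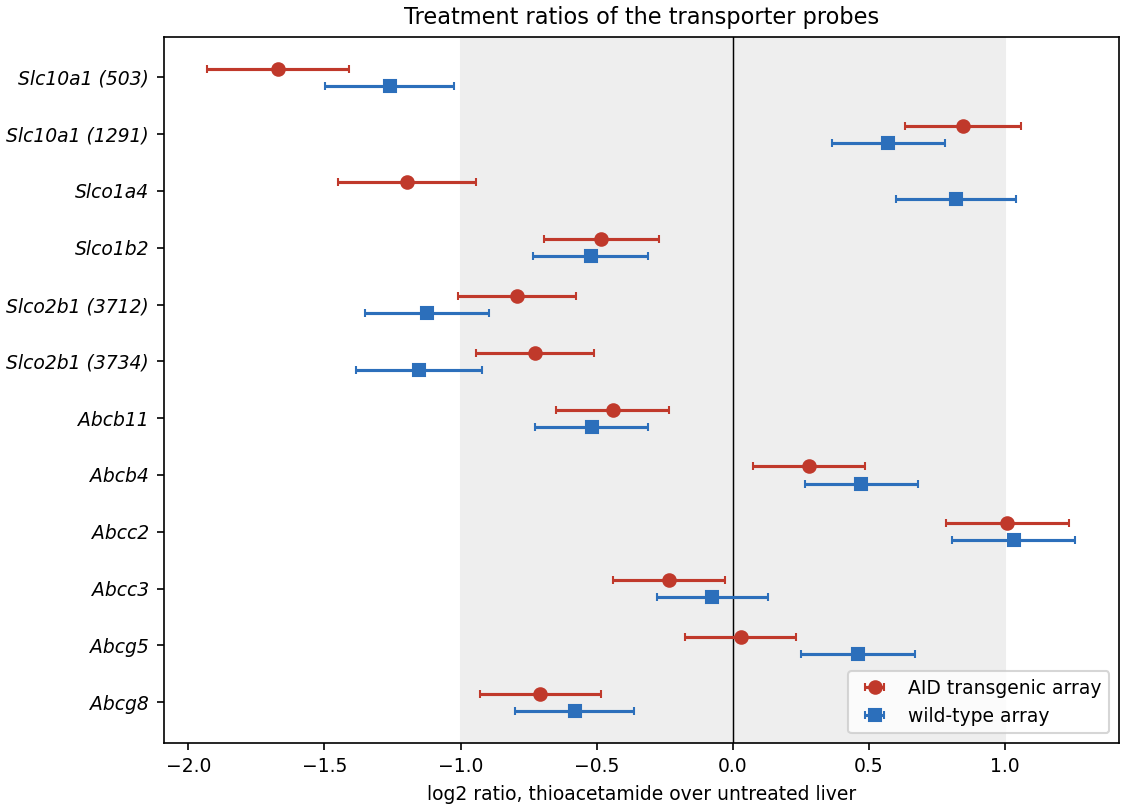
Log2 ratio of thioacetamide-treated over untreated liver (horizontal axis) for each of the 12 transporter probes, with the AID transgenic array as circles above the wild-type array as squares. Bars are the scanner software's error of its log2 ratio, the number after Slc10a1 and Slco2b1 is the probe's position in the transcript, and the grey band holds ratios under 2-fold. The 2 probes of Slc10a1 lie on opposite sides of 0, and Slco1a4 lies at -1.20 on the AID transgenic and 0.82 on the wild-type array.

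The uptake carriers begin with Slc10a1. At the position 503 probe its level was 9.75 in thioacetamide-treated and 11.42 in untreated AID transgenic liver, and 10.34 in thioacetamide-treated and 11.60 in untreated wild-type liver. Both treated livers were thus lower than both untreated livers, with the treated AID transgenic liver lowest. The log2 ratio was -1.67 ± 0.26 on the AID transgenic array and -1.26 ± 0.24 on the wild-type array, and with median centring -0.998 and -0.58. At the position 1291 probe the treated livers were the higher ones. Its level was 17.46 in thioacetamide-treated and 16.61 in untreated AID transgenic liver, and 17.38 in thioacetamide-treated and 16.81 in untreated wild-type liver. Its log2 ratio was 0.85 ± 0.21 on the AID transgenic array and 0.57 ± 0.21 on the wild-type array. The 24 other probes that share a word with it can be set beside it. Of the 22 that were measured, 19 had a ratio above 0 on the AID transgenic array (median 0.37) and 17 on the wild-type array (median 0.20), where all probes had medians of 0.02 and 0.03. These are values with loess, and the share of all probes above 0 is not given. The part of the shared words in the ratios of the position 1291 probe was not tested. The mean over both Slc10a1 probes, -0.41 on the AID transgenic and -0.34 on the wild-type array, averages values of opposite sign and was 0.34 and 0.44 with median centring. Without probes whose accessions belong to several genes, a setting added after the data were seen, Slc10a1 was counted as lower at the 2-fold rule on both arrays.

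Slco1a4 encodes an organic anion transporting polypeptide that takes up bile salts and steroid conjugates, and it was the transporter in which the arrays differed most. Its level was 7.77 in thioacetamide-treated and 8.96 in untreated AID transgenic liver, and 9.61 in thioacetamide-treated and 8.79 in untreated wild-type liver. The untreated livers lay 0.18 apart, the treated AID transgenic liver was the lowest of the 4 and the treated wild-type liver the highest. The log2 ratio was -1.20 ± 0.25 on the AID transgenic array, a level 0.436 times that of untreated liver, and 0.82 ± 0.22 on the wild-type array, 1.77 times that of untreated liver. Of all measured genes, 0.53% had a lower ratio on the AID transgenic array and 97.2% had a lower ratio on the wild-type array. With median centring the ratio was -0.69 on the AID transgenic array, under 2-fold, and 1.45 on the wild-type array, past 2-fold, and the sign on each array was the same under every setting tried. The probe shared no word of 15 bases with a probe of another Slco gene. Transcripts of those genes were not searched, so binding of their RNA to the probe was not tested.

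Slco1b2, the mouse liver carrier of the OATP1B type that takes up bile acids and bilirubin, varied less. Its level was 15.25 in thioacetamide-treated and 15.74 in untreated AID transgenic liver, and 15.32 in thioacetamide-treated and 15.84 in untreated wild-type liver. Both treated livers were lower than both untreated ones, by log2 ratios of -0.48 ± 0.21 on the AID transgenic and -0.52 ± 0.21 on the wild-type array, and with median centring the ratios were 0.30 and 0.30, above 0. Slco2b1 encodes a carrier of steroid sulfates and other organic anions, and its 2 probes, which overlap by 38 bases, are not independent. At position 3712 its level was 10.88 in thioacetamide-treated and 11.68 in untreated AID transgenic liver, and 11.08 in thioacetamide-treated and 12.21 in untreated wild-type liver. At position 3734 the levels were 10.08 in thioacetamide-treated and 10.80 in untreated AID transgenic liver, and 10.24 in thioacetamide-treated and 11.40 in untreated wild-type liver. At both probes the untreated wild-type liver was highest and the treated livers were lowest. The mean log2 ratio was -0.76 on the AID transgenic array and -1.14 on the wild-type array. The error at each single probe was 0.22 on the AID transgenic and 0.23 on the wild-type array. Of measured genes, 1.28% had a lower ratio on the wild-type array. With median centring the ratios were -0.08 and -0.45, so the wild-type value was no longer at 2-fold. As a set, the 4 uptake carriers had a median ratio of -0.62 on the AID transgenic array, with 4 of 4 below 0, and -0.43 on the wild-type array, with 3 of 4 below 0, whereas with median centring 2 of 4 and 1 of 4 lay below 0. These medians hold the mean of the Slc10a1 probes. They were -0.98 and -0.83 without probes of several genes, and -0.64 (3 of 4 below 0) and 0.02 (2 of 4 below 0) with the brightest probe.

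**Figure D2:**
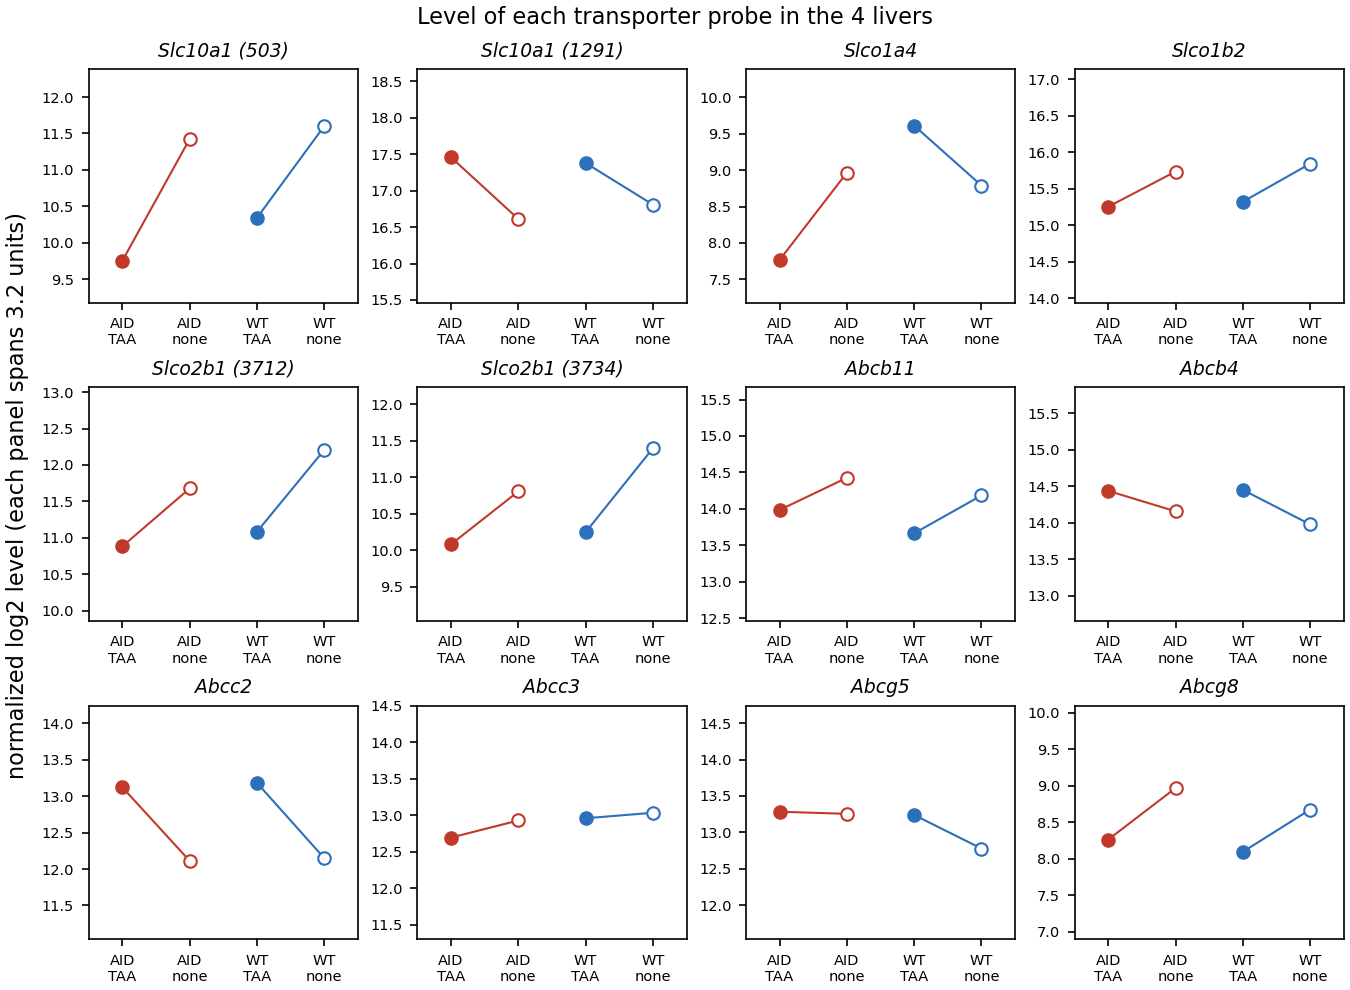
Normalized log2 level (vertical axis, each panel spanning the same number of units) of each transporter probe in the AID transgenic livers with thioacetamide (AID TAA) and without (AID none) and the wild-type livers with thioacetamide (WT TAA) and without (WT none). Filled points are Cy5, open points are Cy3, each point is 1 channel of 1 array, and lines join the channels of an array. Abcc2 was higher in both treated livers, and Slco1a4 was lowest at 7.77 in the treated AID transgenic and highest at 9.61 in the treated wild-type liver.

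Among the canalicular pumps, Abcb11 encodes the bile salt export pump, which drives bile acids into the canaliculus. Its level was 13.99 in thioacetamide-treated and 14.43 in untreated AID transgenic liver, and 13.67 in thioacetamide-treated and 14.18 in untreated wild-type liver. The log2 ratio was -0.44 ± 0.21 on the AID transgenic and -0.52 ± 0.21 on the wild-type array, and it was 0.30 and 0.24 with median centring. The AID transgenic livers were the higher ones at either treatment state, by 0.32 among treated and 0.24 among untreated livers. Abcb4 encodes the floppase that moves phosphatidylcholine to the outer leaflet, from where bile salts take it up. Its level was 14.44 in thioacetamide-treated and 14.16 in untreated AID transgenic liver, and 14.45 in thioacetamide-treated and 13.98 in untreated wild-type liver. The log2 ratio was 0.28 ± 0.21 on the AID transgenic and 0.47 ± 0.21 on the wild-type array, above 0 under every setting and past 2-fold with median centring, at 1.03 and 1.25. The treated livers of the 2 genotypes differed by -0.01, less than the spread between spots.

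Abcc2 encodes MRP2, the canalicular pump for conjugated bilirubin and glutathione conjugates. Its level was 13.12 in thioacetamide-treated and 12.11 in untreated AID transgenic liver, and 13.18 in thioacetamide-treated and 12.15 in untreated wild-type liver. Both treated livers were higher than both untreated livers, and within a treatment state the genotypes lay 0.06 and 0.04 apart, less than the spread between spots. The log2 ratio was 1.01 ± 0.23 on the AID transgenic array, a 2.01-fold higher level, and 1.03 ± 0.23 on the wild-type array, a 2.05-fold higher level. Of measured genes, 98.8% had a lower ratio on the AID transgenic and 98.2% on the wild-type array. Both ratios lay close to the 2-fold threshold, and they stayed past it under every setting tried, between 1.01 and 1.71 on the AID transgenic and between 1.03 and 1.75 on the wild-type array.

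Abcg5 and Abcg8 encode half-transporters that work as a pair and secrete cholesterol and plant sterols into bile. The Abcg5 level was 13.28 in thioacetamide-treated and 13.26 in untreated AID transgenic liver, and 13.24 in thioacetamide-treated and 12.78 in untreated wild-type liver. The untreated wild-type liver thus stood below the other livers, which lay close together. The Abcg5 log2 ratio was 0.03 ± 0.20 on the AID transgenic and 0.46 ± 0.21 on the wild-type array. The Abcg8 level was 8.26 in thioacetamide-treated and 8.97 in untreated AID transgenic liver, and 8.10 in thioacetamide-treated and 8.67 in untreated wild-type liver. Here both treated livers were below both untreated livers, and the log2 ratio was -0.71 ± 0.22 on the AID transgenic and -0.58 ± 0.22 on the wild-type array. The partners had ratios of unequal size on each array. The 109-base stretch shown above lies between the Abcg5 start and a listed Abcg8 start, and which Abcg8 start was used in these livers was not tested. Abcg5 stayed above 0 and Abcg8 below 0 on both arrays under every setting tried, with Abcg8 at -0.16 and -0.04 with median centring and Abcg5 at 0.75 and 1.19, past 2-fold on the wild-type array. Between untreated livers both genes were higher in AID transgenic than in wild-type liver, by 0.48 for Abcg5 and 0.30 for Abcg8.

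Abcc3 encodes MRP3, a basolateral pump that returns conjugated bilirubin and bile acids to blood. Its level was 12.69 in thioacetamide-treated and 12.93 in untreated AID transgenic liver, and 12.96 in thioacetamide-treated and 13.03 in untreated wild-type liver. The log2 ratio was -0.23 ± 0.20 on the AID transgenic and -0.08 ± 0.20 on the wild-type array, and it was 0.47 and 0.65 with median centring. Both signs thus depended on the normalization.

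Comparing the arrays, the log2 ratio of 1 of the 10 transporters differed by at least 2-fold between AID transgenic and wild-type mice, against 1.98% of 17120 measured genes (0.929% higher and 1.05% lower). This was Slco1a4, with a difference of -2.02 ± 0.34, below which lay 0.15% of all measured genes. The remaining members differed by -0.43 for Abcg5 to 0.38 for Slco2b1. Of all measured genes, 5% had a difference below -0.45 and 5% above 0.45. At the position 503 probe of Slc10a1 alone the difference was -0.41 ± 0.35. Between the treated livers, AID transgenic over wild-type, Slco1a4 was again the member at 2-fold, at -1.84, against 1.5% of 17092 measured genes (0.737% higher and 0.761% lower). The other members ranged from -0.26 for Abcc3 to 0.32 for Abcb11. Between untreated livers 0 of the 10 were at 2-fold, against 0.601% of 14309 measured genes (0.307% higher and 0.294% lower). There Slco2b1 was lowest, at -0.56, and Abcg5 was highest, at 0.48, with 98.4% of genes below it. The direction of the Slco1a4 difference was the same under every setting, between -2.54 and -2.02. The treatment ratio of the wild-type array and the comparison of treated livers share the treated wild-type liver, in which Xist was detected and Ddx3y and Eif2s3y were not. Genotype and sex cannot be told apart in these Slco1a4 values, and the part of sex in them was not tested.

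**Figure D3:**
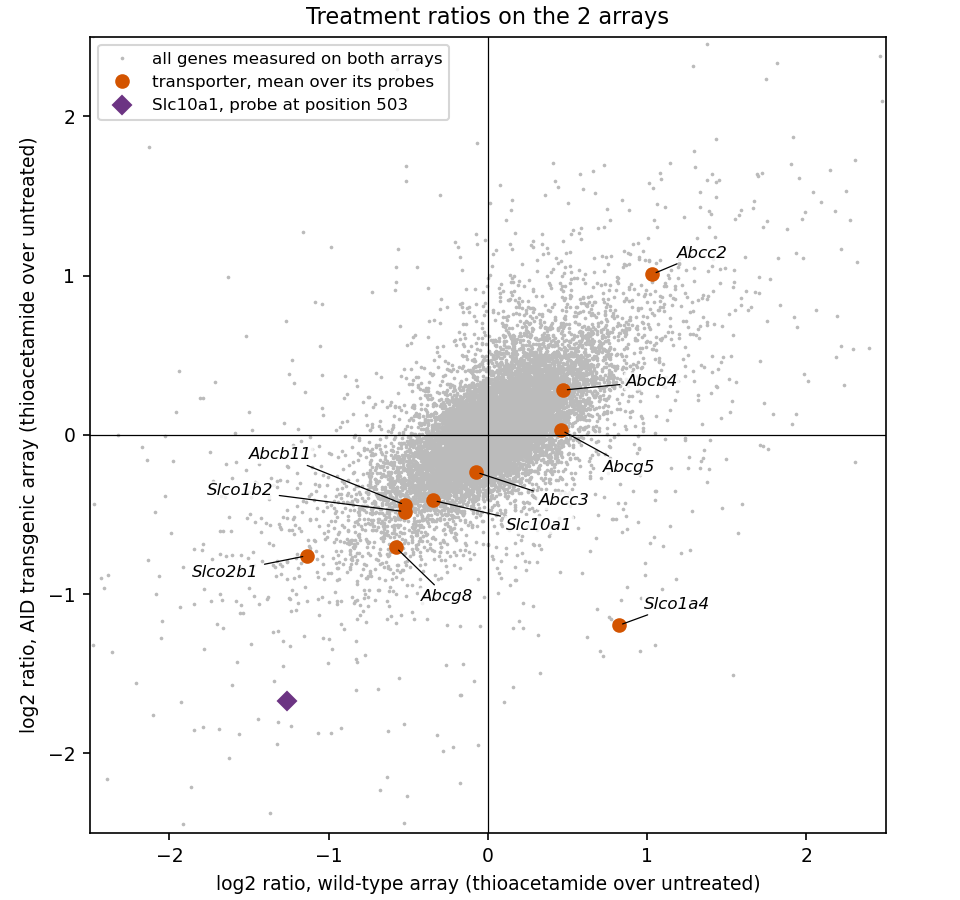
Log2 treatment ratio on the AID transgenic array (vertical axis) against that on the wild-type array (horizontal axis), with all genes measured on both arrays in grey, the 10 transporters as circles and the position 503 probe of Slc10a1 as a diamond. Genes outside the axis range of 2.5 are not drawn. Abcc2 lies at 1.01 and 1.03 in the upper right, and Slco1a4 lies apart from the other transporters in the lower right.

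Other genes of hepatocyte transport and bile acid metabolism were read from lists. For the list counts given here and below, 2.16% of all measured genes were at 2-fold on the AID transgenic and 3.5% on the wild-type array. With median centring these shares were 8.45% and 11.0%, and 96.2% and 94.4% of those calls were higher. The shares were 5.32% and 7.13% with an offset of 0, and 11.9% and 13.1% with the scanner's signals. Of 7 measured other uptake carriers, 0 were at least 2-fold higher and 1 lower on the AID transgenic array, and 0 were higher and 2 lower on the wild-type array. Slco1a1, a male-biased carrier of bile acids in mouse liver, had log2 ratios of -1.91 ± 0.28 on the AID transgenic and -4.12 ± 0.49 on the wild-type array, with a difference of 2.21. Slc22a7, an organic anion transporter, had -0.54 and -1.12, or 0.16 and -0.42 with median centring. The Slco1a1 and Slco1a4 differences thus had opposite signs. Both include the wild-type pair, so genotype and sex cannot be told apart in them. Of 9 other canalicular proteins, 0 were at 2-fold on the AID transgenic array and 1 was lower on the wild-type array. This was Abcg2, a pump for sulfated conjugates, with 0.15 ± 0.20 on the AID transgenic and -1.50 ± 0.25 on the wild-type array, or 0.85 and -0.80 with median centring. Under that setting the water channel gene Aqp8 was the 1 protein of this list at 2-fold on the AID transgenic array, at 1.43 (0.79 with loess), and none was on the wild-type array. Of 7 measured other basolateral exporters, 1 was higher on each array. It was Abcc4, the bile acid and conjugate pump MRP4, with 2.28 ± 0.35 on the AID transgenic and 2.69 ± 0.38 on the wild-type array. With median centring the cholesterol exporter gene Abcg1 was also higher on the AID transgenic array, at 1.29 (0.71 with loess). Slc51b, a subunit of the basolateral bile acid exporter OST, was not well above background in either untreated liver. Its log2 ratio was 0.30 ± 0.39 on the AID transgenic and -0.05 ± 0.43 on the wild-type array, each error being larger than its ratio. The cholesterol exporter gene Abca1 had 0.14 and -0.33, or 0.82 and 0.36 with median centring. None of 10 canalicular scaffolding and trafficking genes was at 2-fold on either array, with medians of -0.04 and -0.03, or 0.59 and 0.64 with median centring, which put 1 at 2-fold higher on the AID transgenic and 2 on the wild-type array.

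Of 14 genes of bile acid synthesis and conjugation, 0 were higher and 2 lower on the AID transgenic array, with a list median of -0.47, and 0 were higher and 3 lower on the wild-type array, with a median of -0.51. With median centring these medians were 0.30 and 0.19, with 0 higher and 1 lower on the AID transgenic and 1 each way on the wild-type array. Cyp7a1, the rate-limiting enzyme of the classic pathway, had log2 ratios of -0.12 ± 0.21 on the AID transgenic and 0.51 ± 0.21 on the wild-type array, or 0.46 and 1.13 with median centring. The genes counted as lower on the AID transgenic array were Cyp39a1, an oxysterol hydroxylase, at -1.95 ± 0.29, and Cyp27a1, a mitochondrial sterol hydroxylase, at -1.17 ± 0.24, or -0.52 with median centring. On the wild-type array they were Cyp7b1, a male-biased oxysterol hydroxylase, at -4.02, the sterol carrier gene Scp2 at -1.18 and the conjugating enzyme gene Baat at -1.08, of which Scp2 and Baat were at -0.35 and -0.41 with median centring. Cyp39a1 had -0.06 on the wild-type array, a difference of -1.89, and Cyp7b1 had -0.76 on the AID transgenic array, a difference of 3.27, and with median centring these ratios were 0.59 and 0.01.

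Among 15 regulators, 1 was higher and 1 lower on the AID transgenic array, and 1 was higher and 0 lower on the wild-type array. With median centring 2 were higher and 0 lower on the AID transgenic array, and 1 higher and 0 lower on the wild-type array. Nfe2l2, the gene of NRF2, of which Abcc2, Abcc3 and Abcc4 are known targets in mouse liver, had log2 ratios of 1.78 ± 0.27 on the AID transgenic and 1.29 ± 0.24 on the wild-type array. Of those targets Abcc2 and Abcc4 were at 2-fold on both arrays and Abcc3 on neither. Activity of NRF2 was not measured. A link of NRF2 to these genes, or to the motif match in the Abcc2 window, was not tested. Nr1i2, the gene of PXR, of which Slco1a4 is a known target in rodents, had -1.44 ± 0.25 on the AID transgenic and -0.15 ± 0.20 on the wild-type array, or -0.77 and 0.52 with median centring. Its level was higher in untreated AID transgenic than in untreated wild-type liver, by 1.07, and the treated livers differed by -0.22. Slco1a4 differed by 0.18 and -1.84 in the same comparisons. Activity of PXR was not measured, and a link between the 2 genes was not tested. Nr1h4, the gene of the bile acid receptor FXR, had 0.64 on the AID transgenic and -0.18 on the wild-type array, or 1.35 and 0.54 with median centring. Nr0b2, the FXR target SHP, had -0.80 on the AID transgenic and 0.26 on the wild-type array, or -0.21 and 0.81 with median centring, and was higher by 1.15 in untreated AID transgenic than in untreated wild-type liver. The LXR gene Nr1h3 had -0.02 and -0.03, the CAR gene Nr1i3 had -0.53 and -0.24, and Hnf4a, the gene of a nuclear receptor of hepatocytes, had -0.12 and 0.06. With median centring all 3 were above 0 on both arrays, between 0.12 and 0.87.

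Cell type markers are given beside these values. Krt19, a keratin of bile duct cells, had -0.87 on the AID transgenic and 0.59 on the wild-type array, and of the cholangiocyte markers 0 of 6 measured on the AID transgenic array (median -0.37) and 0 of 8 on the wild-type array (median 0.08) were at 2-fold. With median centring the cholangiocyte medians were -0.04 and 0.06 and 2 of 8 were higher on the wild-type array, and with the scanner's signals 2 of 6 were lower on the AID transgenic and 1 of 8 each way on the wild-type array. Of 8 Kupffer cell and macrophage markers, 3 were higher on the AID transgenic array (median 0.82) and 0 on the wild-type array (median 0.16). With median centring 6 (median 1.48) and 2 (median 0.72) were higher, where the medians of all genes were 0.34 and 0.35. Of 7 stellate cell markers, 1 was lower on the AID transgenic array (median -0.44) and 1 higher on the wild-type array (median -0.10). None of 6 sinusoidal endothelial markers was at 2-fold, with medians of -0.03 and -0.22, and none of 7 lymphocyte markers measured on the AID transgenic and 6 on the wild-type array, with medians of 0.14 and 0.00. With median centring the stellate cell medians were -0.27 and 0.26, with 1 lower on the AID transgenic and 3 higher on the wild-type array, and the endothelial ones 0.67 and 0.42. The part of these cells in the transporter values was not tested.

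**Figure D4:**
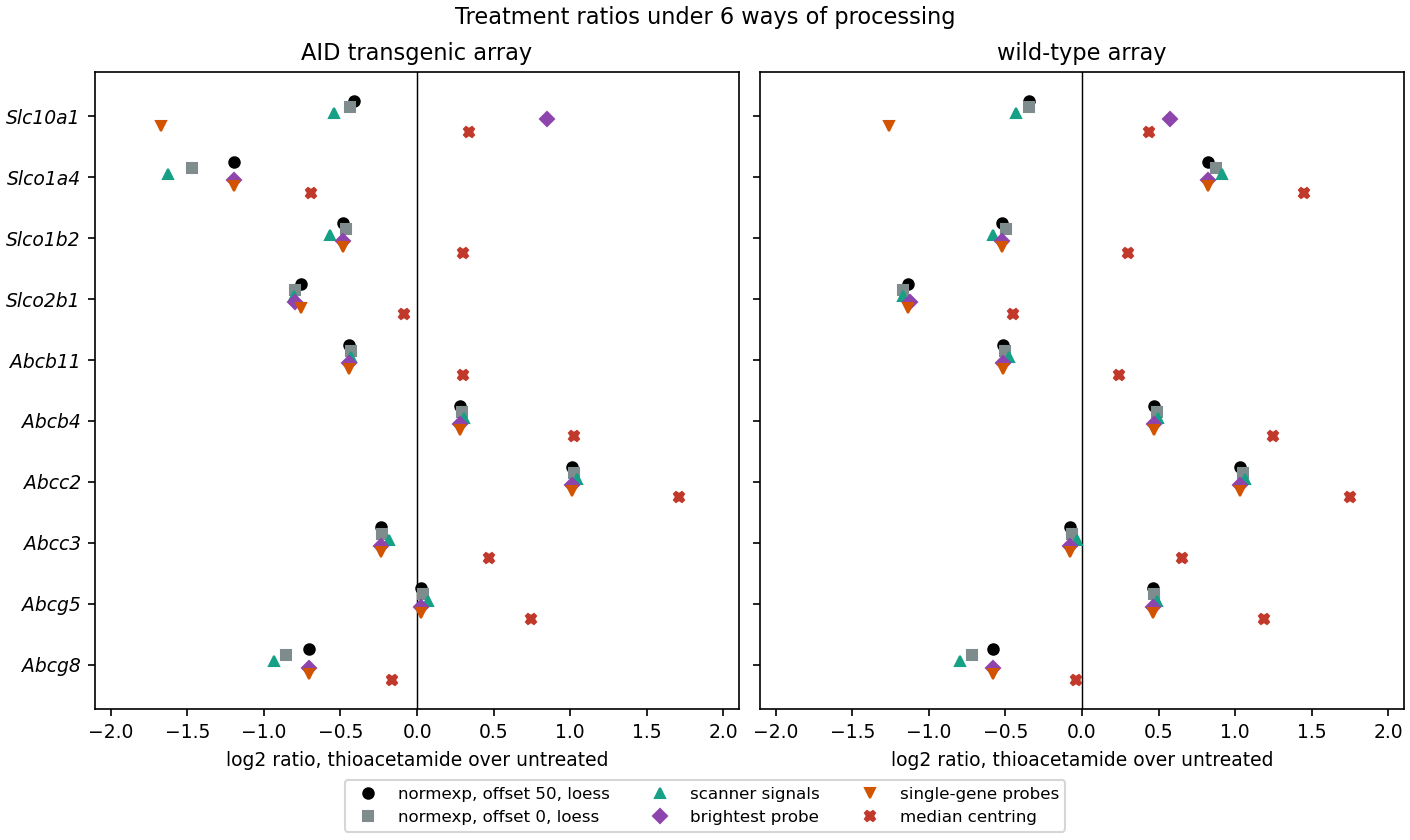
Log2 treatment ratio (horizontal axis) of each transporter on the AID transgenic array (left) and the wild-type array (right) under 6 ways of processing, each with its own symbol. Median centring lies to the right of loess for all 10 genes on both arrays, and Slc10a1 lies at -1.67 and -1.26 without probes of several genes and at 0.85 and 0.57 with its brightest probe.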

How the data were processed

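The authors deposited 2-colour scanner output of liver RNA. Per the file headers it was made with Agilent Feature Extraction 10.7.3.1, while the submitters' processing notes name 10.5.1.1. The deposited intensity columns are, per the file headers, mean spot and median local background signals as scanned, and processed signals after background subtraction, detrending and dye normalization by the software. The deposited log10 ratio is Cy5 over Cy3 of the processed signals, and the deposited error of that ratio is a score in log10 units from the software's error model. The authors' value table equalled the scanner's log10 ratio on 43020 of 43020 non-control spots per array (tolerance 0), and its column medians were 0.

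Mean signals were corrected with normexp (offset 50) and loess within arrays, with Aquantile between arrays for levels and comparisons of 1 channel (limma 3.58.1, R 4.3.3), after a check on simulated data. Control spots and 207 outlier spots of the AID transgenic and 197 of the wild-type array were left out. Of non-control spots, 68.8% in Cy5 and 53.9% in Cy3 of the AID transgenic array, and 68.4% and 56.0% of the wild-type array, were well above background. Spots of a probe and then probes of a gene were averaged (Python 3.11.15, pandas 2.3.3). Of 39429 probes, 26055 were named by RefSeq accession, 3195 by symbol, 930 by synonym and 9249 not at all. A gene was measured when a probe was well above background in at least 1 channel that entered, and it was counted from a log2 size of 1. A fold against a channel that was dim is a bound, "at least": it uses the gene's own level or the lowest level of any probe well above background there, whichever is higher, and is open to dye bias. The alternatives were a normexp offset of 0, the scanner's signals, median centring, both filters on dim probes, the brightest probe, the authors' table and, chosen after seeing the data, leaving out 592 probes with accessions of several genes. Named genes were the 10 members, up to 3 genes at 2-fold per list, treatment ratio or difference and direction, and a set of regulators and markers always named. The members, lists and motifs were chosen with earlier results of these data known.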

Additional observations from a re-analysis of the deposited data

Results flagged for a closer look

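The Slco1a4 ratios had opposite signs on the arrays: -1.20 on the AID transgenic and 0.82 on the wild-type array, a difference of -2.02. The difference was not tested, since there was 1 array per genotype. It also carries the difference in sex-tied transcripts between the wild-type livers.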

How the results depend on the processing

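No paired analysis was possible because there was 1 array per genotype. The number of transporters at 2-fold on the wild-type array was 2 and became 4 with median centring, namely Slco1a4, Abcb4, Abcc2 and Abcg5, all higher, while the AID transgenic count stayed at 2 with Abcb4 and Abcc2 higher and none lower. Median centring moved the median log2 ratio of all genes from 0.03 to 0.34 on the AID transgenic and 0.35 on the wild-type array, and turned the sign of 9 of 50 member values, none of them at 2-fold. Leaving out probes of several genes gave 3 transporters at 2-fold on each array, adding Slc10a1, and the brightest probe turned 4 signs, all of Slc10a1. An offset of 0, the scanner's signals, both dim-probe filters and the authors' table turned no sign and changed no call among the members. Over all genes the calls numbered 361 on the AID transgenic and 584 on the wild-type array, 889 and 1188 with an offset of 0, 1993 and 2183 with the scanner's signals, 1994 and 2188 with the authors' table, and 1411 and 1831 with median centring. Higher calls made up 56.2% and 53.1% on the AID transgenic and wild-type arrays, 69.7% and 65.8% with an offset of 0, 76.2% and 72.2% with the scanner's signals, and 96.2% and 94.4% with median centring. The number of arrays limits the precision. The cause of these shifts was not tested.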
